A study of Homo sapiens with 22 samples.

Results

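WM989 melanoma cells outside the primed state at harvest were compared between cultures treated with TGFB1 and untreated cultures. WM989 is a human BRAF V600E melanoma line that holds a majority of drug-susceptible cells and a minority of primed cells, which are more likely to survive BRAF and MEK inhibition. The members are the cells that the authors' annotation does not call primed, that is all Louvain clusters except 4 and 10. They number 15285 of the 18878 cells in the Control and TGFB1 libraries, and 40021 cells were annotated in the whole treatment experiment. The comparison asks how cells called drug-susceptible at harvest differed between TGFB1 and untreated cultures. Their earlier states were not followed here.

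All 4 arms came from barcoded WM989 cells that had been expanded in a well and split over 4 plates. One arm received no agent (Control), one received 5 ng/mL TGFB1, one received 4 µM of the TGF-β receptor inhibitor TGFBRi, and one received 2 µM of the PI3K inhibitor PI3Ki, each for 5 days. Each arm has 2 libraries, r1 and r2, from 2 parallel starting wells. The sample labels call the replicates Mix and Primed, and which of them is r1 was not settled. Both replicates are cultures of 1 line, which the paper's methods describe as carried in parallel. Whether Mix and Primed also mark different starting cells was not settled. Primed cells made up a larger share in r2 than in r1 in every arm (TGFBRi 2.26% and 4.32%, PI3Ki 0.647% and 1.21% in r1 and r2). The spread between replicates can therefore hold more than that of like cultures. Every library was made with the 10x 3′ V3.1 kit and read as UMI counts, in which each captured transcript counts once per cell and gene.

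TGF-β1 is a secreted ligand that is stored in a latent complex in the matrix. Once released, it binds the type II receptor TGFBR2, which activates the type I receptor TGFBR1, and this kinase phosphorylates SMAD2 and SMAD3. These join SMAD4 in the nucleus and switch on matrix genes and a set of feedback inhibitors such as SMAD7, SKIL and PMEPA1. In melanoma the pathway is known for matrix production, for invasion and for the loss of melanocyte differentiation.

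The drug-susceptible cells of the 4 libraries numbered 4058 and 3527 in Control and 3842 and 3858 with TGFB1 (r1 and r2 in this order throughout). Their summed depth was 76751195 and 77745874 UMIs in Control and 59815217 and 62466453 UMIs with TGFB1, and the median UMIs per cell were 18526 and 21929 against 14846 and 15609.5. Primed cells, which were left out, made up 2.26% and 4.47% of all cells in Control and 29.1% and 31.3% with TGFB1. The median share of mitochondrial UMIs in the drug-susceptible cells lay between 10.3% and 11% in the 4 libraries. A total of 388 cells of the experiment carried a 10x barcode that also occurred in another library.

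The annotation followed the markers. SOX10, a transcription factor of the melanocyte lineage, stood at 136 and 135 CPM in Control and 146 and 157 CPM with TGFB1, against 31.6 to 70.8 CPM in the primed cells of the same libraries. MITF, the main melanocyte regulator, stood at 326 and 374 CPM in Control and 290 and 349 CPM with TGFB1, against 60.4 to 128 CPM in primed cells. These CPM are each gene's part of all UMIs of the summed cells on the usual CPM scale, without further scaling. NT5E, the surface enzyme CD73 and the study's sorting marker of primed cells, stood at 15.1 and 28.3 CPM in Control and 14.2 and 24.2 CPM with TGFB1, against 90.9 to 129 CPM in primed cells. The leukocyte marker PTPRC reached at most 0.104 CPM and the epithelial markers EPCAM and KRT14 at most 0.0167 CPM, while KRT5 had no UMI in the 4 libraries. State was assigned by cluster from the same counts, so that cells grouped into the primed clusters are not in the comparison. It was not a cut on primed expression, and cells with some primed expression can remain. The clusters that hold the largest share of drug-susceptible cells differed between the arms. Cluster 0 held 44.3% and 33.3% of them in Control, whereas cluster 3 held 56.8% and 42% of them with TGFB1 and 1.38% and 1.67% in Control.

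With TGFB1 most SMAD feedback genes and collagens tested rose, as did FN1 and MMP2. SOX10, MITF, NT5E and EGFR did not pass the test in the fit of all 8 libraries, although the first 3 passed with small changes in a fit of the 4 Control and TGFB1 libraries alone (adjusted p = 0.0409, 0.0306 and 0.0353). Of 13 ATF4 stress response genes tested 8 fell and 2 rose, while melanin and melanosome genes changed in both directions, as did the list of CDK inhibitors, D cyclins and MYC. Counts were summed per library and tested with the edgeR quasi-likelihood test on all 8 libraries with treatment and replicate as terms. Of 17914 genes tested, 2665 (14.9%) passed an adjusted p of 0.05. Of these 1533 (8.56%) were higher and 1132 (6.32%) were lower with TGFB1. Counts of called members in each gene list are to be read against these shares. At least 2-fold changes were less even, with 351 genes (1.96%) higher and 66 (0.368%) lower. The median log2 fold change of all genes tested was 0.0005, and 2664 of the genes called moved the same way in both replicates. Values of the 2 arms did not overlap in 50.4% of the genes tested (25.5% higher and 24.9% lower with TGFB1), so that separation of 2 libraries against 2 is common by itself.

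**Figure D1:**
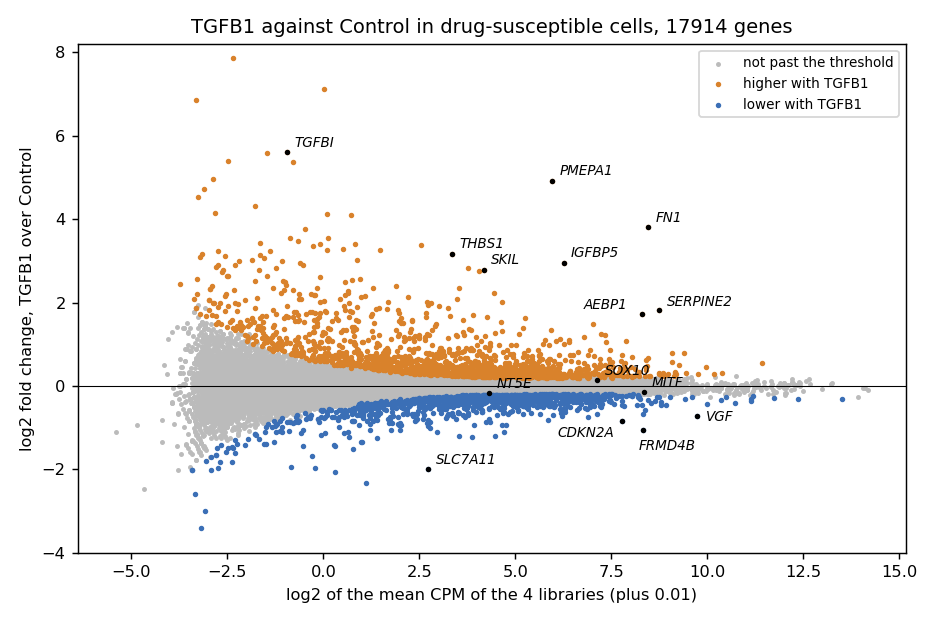
Each point is a gene of the drug-susceptible cells, with the log2 of its mean level over the 4 libraries (CPM plus 0.01) on the x axis and its log2 fold change, TGFB1 over Control, on the y axis. Genes past an adjusted p of 0.05 are orange (1533 higher) or blue (1132 lower), and PMEPA1 and FN1 stand out at high levels, while SOX10, MITF and NT5E lie near 0.

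Feedback genes of the pathway itself were among the largest rises. PMEPA1, a membrane protein that binds receptor-activated SMADs and dampens the signal (chr20:57648392-57711536, minus strand, hg38), stood at 3.57 and 4.32 CPM in Control and 138 and 103 CPM with TGFB1. From here on, CPM of drug-susceptible cells are scaled by TMM, a factor that corrects for library composition. Its rise was 30.4-fold (log2 4.93 ± 0.13 SE, adjusted p = 1.17e-17). Both TGFB1 libraries lay far above both Control libraries, and 36.4% and 32.2% of the cells had a PMEPA1 UMI at 5000 UMIs per cell, against 1.68% and 2.33% in Control. Without thinning the shares were 60.1% and 55.5% against 5.69% and 7.94%.

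SKIL, a nuclear corepressor of SMAD complexes (chr3:170357342-170396835, plus strand), rose from 4.01 and 5.22 CPM to 31.1 and 32.1 CPM (log2 2.79 ± 0.10, adjusted p = 1.9e-15). The inhibitory SMAD7, which directs the receptor to degradation, rose from 6.25 and 6.90 CPM to 15.1 and 15.5 CPM (log2 1.22 ± 0.09, adjusted p = 2.42e-10). SMURF2, the ubiquitin ligase that works with SMAD7, rose from 12.3 and 13.7 CPM to 31.9 and 30.8 CPM (log2 1.27 ± 0.07, adjusted p = 9.93e-12). In each of these genes the values of the arms did not overlap, and the TGFB1 replicates lay closer to each other than to any Control library.

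Of the 30 feedback and direct SMAD target genes listed, 28 passed the filter on low counts, and 23 of them rose, 2 fell and 3 did not pass the test. Their median log2 fold change was 0.82 against 0.0005 over all genes tested. TGFBI, a matrix protein named for its induction by TGF-β, was almost absent from Control, with 0 and 3 UMIs against 64 and 62 with TGFB1. The ratio of its summed counts per UMI was 53.1 (95% interval 17.7 to 261, counting error only). DACT1, a Wnt modulator, rose from 0.156 and 0.362 CPM to 1.64 and 1.57 CPM (log2 2.62 ± 0.27, adjusted p = 1.1e-07). CCN2, the connective tissue growth factor, rose from 6.78 and 7.04 CPM to 25 and 20.6 CPM (log2 1.71 ± 0.10, adjusted p = 9.25e-12). The 2 members that fell were TGIF2, a SMAD corepressor, and CDKN2B, the cell cycle inhibitor p15, which dropped from 13.5 and 12.4 CPM to 7.79 and 7.88 CPM (log2 -0.72 ± 0.08, adjusted p = 1.12e-06). DESeq2 did not call TGFBI (log2 6.10, adjusted p = 0.528), and its edgeR log2 fold change was 4.60 without Control r1 and 9.39 without Control r2. The log2 fold change of DACT1 was 3.21 without Control r2 and 3.32 without TGFB1 r2. The call of TGIF2 was lost without Control r1 (adjusted p = 0.106) and without TGFB1 r1 (0.131), and that of DACT1 without cluster 3 (log2 0.99, adjusted p = 0.0639).

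SMAD3 and SMAD4 are known to bind short DNA elements of the CAGA type and the palindrome GTCTAGAC. Both were looked for on both strands, as exact letters, in the windows from 250 bases before to 50 bases after each annotated start of the RefSeq table (GRCh38.p14), and neither motif contains the other. CAGACA lay in 16.9% of all 35116 windows and GTCTAGAC in 0.202%. Of the 23 feedback genes that rose 18 were in the table, with 45 start windows, of which 12 (26.7%, from 5 genes) held CAGACA and 1 held GTCTAGAC. No test was made of these shares, since the genes were picked by their response. The windows below belong to feedback genes that rose and are shown 5′ to 3′ on the gene's strand, with the motif in capitals. Each distance is from an annotated RefSeq start, and a gene can have several. The PMEPA1 window lies inside the gene span given above, so that its start is not the outer end of that span.
PMEPA1, chr20:57710675-57710704, motif 115 bases before the start: ccccttgggcagCAGACAatgggtgtggat
DACT1, chr14:58634030-58634059, motif 19 bases before the start: gcaactcacttcCAGACAttctagaatctt
TGIF1, chr18:3411773-3411802, motif 224 bases before the start: tcagcccaaaaaCAGACAttgggaacatct
SMAD6, chr15:66702212-66702241, motif 12 bases before the start: agccgccaaagtGTCTAGACtggcatatga
A match shows only that the letters are present.

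TGIF1, a SMAD corepressor, rose from 5.32 and 6.36 CPM to 13.3 and 12.7 CPM (log2 1.16 ± 0.10, adjusted p = 5.86e-09). SMAD6, an inhibitory SMAD, was low and rose from 0.545 and 0.686 CPM to 0.968 and 1.0 CPM (log2 0.68 ± 0.21, adjusted p = 0.0308), a call that was lost without any 1 of 3 libraries, with adjusted p of 0.353 without Control r1, 0.172 without TGFB1 r1 and 0.156 without TGFB1 r2.

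Receptor and ligand genes changed in both directions. TGFBR2 rose from 5.79 and 5.75 CPM to 8.46 and 8.35 CPM (log2 0.54 ± 0.10, adjusted p = 0.000252). TGFBR3, the coreceptor betaglycan, fell from 8.45 and 8.86 CPM to 3.72 and 5.20 CPM (log2 -0.95 ± 0.10, adjusted p = 4.21e-07). TGFBR1 had a log2 fold change of -0.22 ± 0.07 (adjusted p = 0.0328). Of 20 receptors and latency proteins tested 5 rose and 3 fell, with a median of 0.07, and the rises included the latency proteins LTBP1 and LTBP2. Of 9 genes tested from the ligand list 4 rose (TGFB1, BMP1, BMP7 and GDF15) and 1 fell, although BMP1 is a protease and no ligand. TGFB1 itself went from 16.4 and 13.9 CPM to 20.3 and 16 CPM (log2 0.25 ± 0.08, adjusted p = 0.0404). TGFB2 and TGFB3 were under 1 CPM in all 4 libraries, with log2 fold changes of 0.08 and 0.14 that did not pass the test. GDF15, a stress-induced member of the family, rose from 131 and 120 CPM to 190 and 160 CPM (log2 0.48 ± 0.07, adjusted p = 1.22e-05). In G1, S and G2M cells it stood at log2 0.58, 0.66 and 0.24, of which the last did not pass the test (adjusted p = 0.0603). The call of TGFBR1 was lost without any 1 of the 4 libraries (adjusted p 0.0862 to 0.353), that of TGFB1 without Control r1 (0.0901), Control r2 (0.294) or TGFB1 r1 (0.58), and that of LTBP1 without Control r2 (0.137) or TGFB1 r1 (0.15). TGFBR2 stood at log2 0.04 without cluster 3 (adjusted p = 0.867).

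Among the 9 SMAD genes 2 rose (SMAD6 and SMAD7) and 2 fell. SMAD3 had a log2 fold change of -0.27 ± 0.07 (adjusted p = 0.0117) and SMAD9, which serves the BMP branch, one of -0.65 ± 0.17 (adjusted p = 0.00809). SMAD2 and SMAD4 did not pass the test, at -0.05 and 0.11. The ID genes, which encode inhibitors of bHLH factors and are classic targets of BMP signalling, did not move together. ID3 rose from 40.0 and 46.0 CPM to 62.1 and 57.1 CPM (log2 0.48 ± 0.08, adjusted p = 8.75e-05), while ID2 fell by 0.32 on the log2 scale (SE 0.09, adjusted p = 0.0164). ID1 and ID4 had log2 fold changes of 0.01 and -0.05 and did not pass the test. The calls of SMAD3 and ID2 were lost without any 1 of the 4 libraries, with adjusted p of 0.0638 to 0.141 and 0.0617 to 0.203, and that of SMAD9 without Control r2 (0.106) or TGFB1 r1 (0.173).

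**Figure D2:**
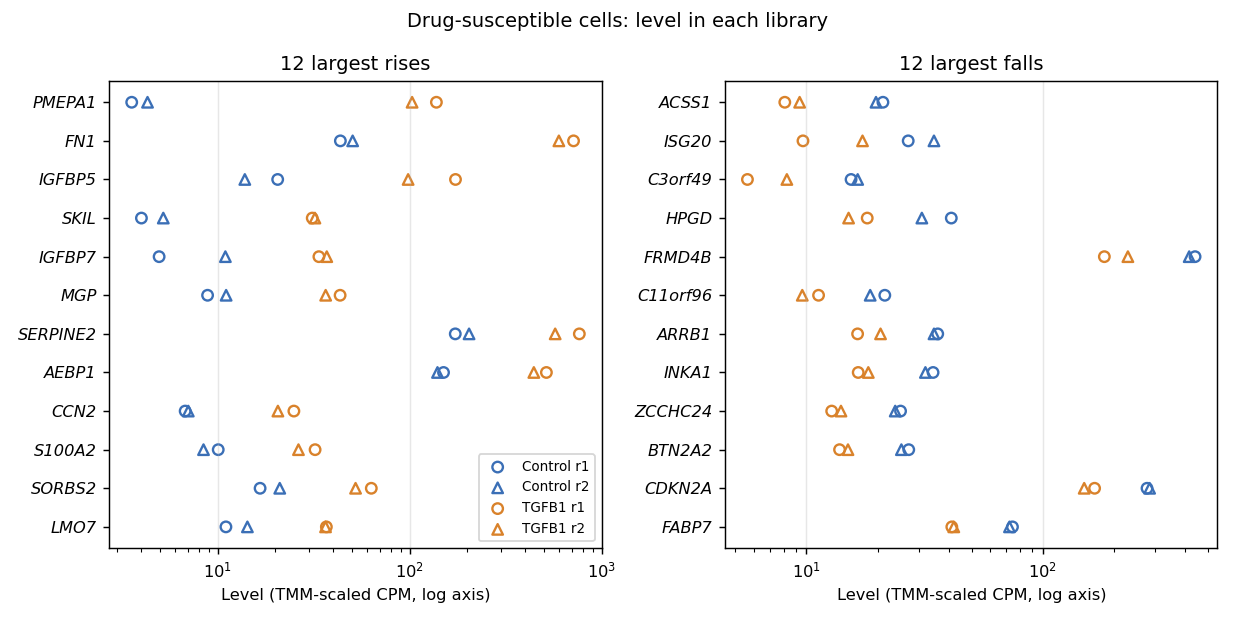
Levels of the 12 strongest rises and the 12 strongest falls among genes whose average in the 8 fitted libraries reached 10 CPM, in TMM-scaled CPM on a log axis, with 1 point per library (circles r1, triangles r2, blue Control, orange TGFB1). The arms do not overlap in any of the 24 genes, against 50.4% without overlap over all genes tested. The 24 were picked for large called changes with 1 direction in both replicates, so that this is nearly given. PMEPA1 spans the widest range, from 3.57 to 138 CPM.

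Matrix genes were also among the largest rises. FN1, the matrix glycoprotein fibronectin (chr2:215360440-215436073, minus strand), rose from 43.6 and 50.5 CPM to 714 and 599 CPM (14.1-fold, log2 3.81 ± 0.11, adjusted p = 5.68e-17). MGP, an inhibitor of matrix calcification that the study lists for its intermediate state, rose from 8.87 and 11.1 CPM to 43.5 and 36.5 CPM (log2 2.02 ± 0.12, adjusted p = 3.34e-11). AEBP1, a collagen-binding secreted protein, rose from 150 and 140 CPM to 516 and 443 CPM (log2 1.73 ± 0.08, adjusted p = 1.23e-13). Both TGFB1 libraries lay above both Control libraries in each of the 3 genes.

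Of 15 collagens tested 12 rose, none fell by the edgeR test and 3 did not pass it, with a median log2 fold change of 1.17. COL18A1, a basement membrane collagen, rose from 1.06 and 0.948 CPM to 12.3 and 8.91 CPM (log2 3.39 ± 0.14, adjusted p = 3.14e-14). COL5A1, which nucleates collagen fibrils, had 0 and 4 UMIs in Control and 71 and 69 with TGFB1, a ratio of 44.2 per UMI (95% interval 16.9 to 165, counting error only). COL6A3 rose from 0.844 and 0.624 CPM to 3.62 and 2.81 CPM (log2 2.13 ± 0.16, adjusted p = 5.18e-10). COL1A1 rose from 0.169 and 0.349 CPM to 2.87 and 2.30 CPM (log2 3.29 ± 0.23, adjusted p = 2.42e-10), whereas COL1A2, which encodes the partner chain of type I collagen, did not pass the test (log2 0.83 ± 0.39, adjusted p = 0.179). COL1A2 passed without TGFB1 r2 (log2 1.73, adjusted p = 0.0263) and over all cells, primed cells included (log2 2.54, adjusted p = 1.1e-09). Without Control r2 the log2 fold change of COL1A1 was 4.02. In unscaled CPM the rise of COL1A1 was 1.64% and 1.16% of its level in primed TGFB1 cells, a measure taken up below.

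Of 21 matrix glycoproteins and proteoglycans tested 9 rose and 1 fell, with a median of 0.27. THBS1, which can release latent TGF-β, rose from 1.27 and 2.88 CPM to 17.5 and 18.9 CPM (log2 3.17 ± 0.15, adjusted p = 5.9e-13). TNC, an adhesion-modulating glycoprotein, rose from 3.29 and 5.34 CPM to 18.4 and 17.4 CPM (log2 2.08 ± 0.14, adjusted p = 1.55e-10). BGN, the proteoglycan biglycan, rose by 2.16 ± 0.15 on the log2 scale (adjusted p = 3.16e-10). The 1 member that fell was LAMA1, a laminin chain, and LAMA4, another, did not pass the test (log2 0.19, adjusted p = 0.0678) but did without TGFB1 r2 (log2 0.28, adjusted p = 0.0462), in the fit of the 4 libraries (0.0143), without cluster 3 (0.042) and in G1 cells (0.0391). The call of LAMA1 was lost without TGFB1 r1 (adjusted p = 0.251).

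Enzymes that build the collagen network changed less uniformly, with 5 of 12 up, 1 down and a median of 0.20. LOXL2, a collagen crosslinker, rose from 3.27 and 4.44 CPM to 8.81 and 9.57 CPM (log2 1.26 ± 0.10, adjusted p = 1.72e-09), and TGM2, a transglutaminase, rose by 1.14 ± 0.12 (adjusted p = 2.7e-07). SERPINH1, the collagen chaperone HSP47, fell from 24.7 and 22.1 CPM to 16.5 and 15.8 CPM (log2 -0.53 ± 0.07, adjusted p = 1.19e-05).

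Of 18 integrin genes 6 rose and 2 fell, with a median of 0.11. ITGB3, the β3 chain of a vitronectin receptor, rose from 16.5 and 23.4 CPM to 36.1 and 41.9 CPM (log2 0.98 ± 0.08, adjusted p = 5.03e-09). ITGB1, the common β1 chain, rose from 134 and 135 CPM to 210 and 209 CPM (log2 0.64 ± 0.07, adjusted p = 5.66e-07). ITGB8, whose heterodimer with the αV chain activates latent TGF-β, fell from 12.8 and 14.6 CPM to 7.16 and 8.78 CPM (log2 -0.78 ± 0.08, adjusted p = 1.31e-07).

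Proteases and their inhibitors rose in 12 of 19 genes and fell in 3, with a median of 0.37. MMP2, a gelatinase, rose from 3.65 and 4.89 CPM to 31.8 and 25.9 CPM (log2 2.76 ± 0.13, adjusted p = 7.41e-13). SERPINE2, a serine protease inhibitor that the study counts among both primed and intermediate genes, rose from 173 and 204 CPM to 765 and 573 CPM (log2 1.83 ± 0.11, adjusted p = 1.45e-11). MMP1, a collagenase, rose by 2.09 ± 0.24 (adjusted p = 8.68e-07), and MMP16 did not pass the test (log2 0.20, adjusted p = 0.184).

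IGFBP5 and IGFBP7, secreted proteins that bind insulin-like growth factors, were also among the 12 largest rises among genes whose average in the 8 fitted libraries, TGFBRi and PI3Ki included, reached 10 CPM. MMP2, THBS1 and TNC averaged 9.98, 5.82 and 6.79 CPM there and are for that reason not among the 12. IGFBP5 rose from 20.6 and 13.9 CPM to 173 and 98.2 CPM (log2 2.96 ± 0.08, adjusted p = 1.71e-17). IGFBP7 rose from 4.96 and 11 CPM to 33.7 and 37 CPM (log2 2.23 ± 0.14, adjusted p = 5.66e-11). The remaining 3 of the 12 were S100A2, SORBS2 and LMO7, an S100 calcium-binding protein and 2 proteins linked to the actin cytoskeleton, with log2 rises of 1.66, 1.63 and 1.54.

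Genes of epithelial-to-mesenchymal transition (EMT) and contraction did not move as a block. Of 12 EMT genes tested 4 rose and 1 fell, and the 4 that rose were the cadherins CDH2, CDH13 and CDH19 and NES, an intermediate filament of neural crest and stem cells. NES rose from 0.286 and 0.312 CPM to 1.27 and 1.44 CPM (log2 2.18 ± 0.22, adjusted p = 1.41e-07). CDH2, N-cadherin, rose from 10.2 and 10.5 CPM to 19.0 and 18.6 CPM (log2 0.86 ± 0.08, adjusted p = 1.55e-08). VIM, the filament most used as a mesenchymal mark, fell from 3841 and 3640 CPM to 3263 and 2897 CPM (log2 -0.28 ± 0.08, adjusted p = 0.0189). Among the transcription factors, ZEB1 (log2 0.25, adjusted p = 0.0684), ZEB2 (0.10, adjusted p = 0.34), SNAI2 (0.00, adjusted p = 0.989) and TWIST1 (-0.14, adjusted p = 0.151) did not pass the test. ZEB1 passed in the fit of the 4 libraries (adjusted p = 0.0284), in G1 cells (log2 0.48, adjusted p = 0.0162) and with equal cell numbers (0.0446), and ZEB2 was lower without cluster 3 (log2 -0.22, adjusted p = 0.0389). Of 20 actin contractile genes 7 rose and 1 fell, with a median of 0.09. The smooth muscle genes TAGLN and ACTA2 were rare, at 0.299 and 0.362 CPM against 1.35 and 0.867 CPM for TAGLN and at 0.208 and 0.299 CPM against 0.567 and 0.471 CPM for ACTA2. Both passed the test, with adjusted p of 6.03e-05 and 0.0214. The call of CDH13 (log2 0.85) was lost without Control r1 (adjusted p = 0.0985), Control r2 (0.0772) or TGFB1 r1 (0.23), without the replicate term (0.0672), with DESeq2 (0.158) and without cluster 3 (log2 0.42, adjusted p = 0.386). The call of VIM was lost without any 1 of the 4 libraries (adjusted p 0.114 to 0.278) and that of ACTA2 without Control r1 (0.364), TGFB1 r1 (0.217) or TGFB1 r2 (0.076). Without cluster 3 TAGLN and ACTA2 stood at log2 0.36 and 0.19 and did not pass the test.

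**Figure D3:**
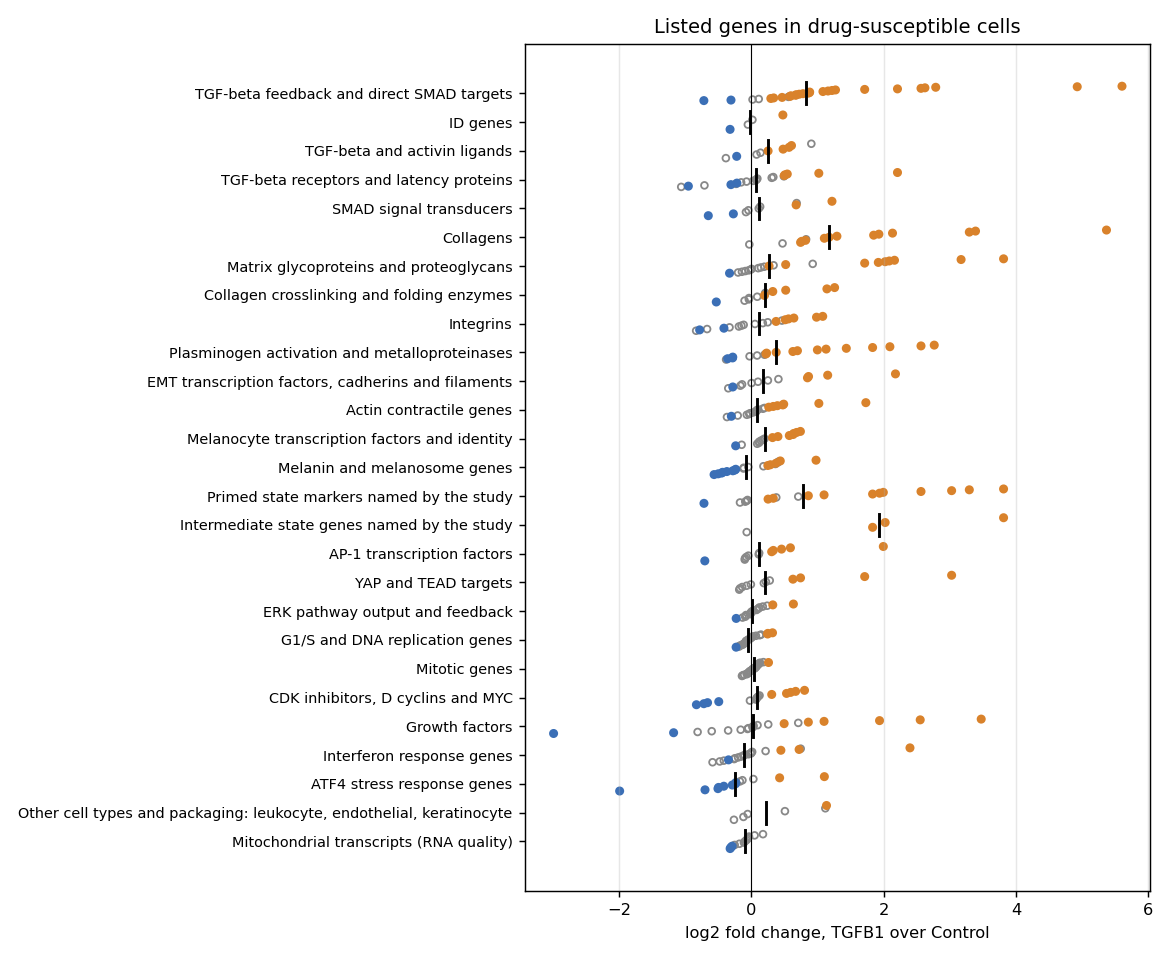
Log2 fold changes (TGFB1 over Control, x axis) of the genes of 27 lists in drug-susceptible cells, with 1 point per gene that passed the filter on low counts (orange higher and blue lower at an adjusted p of 0.05, open grey otherwise) and a bar at the median of each list. Feedback genes (median 0.82) and collagens (median 1.17) lie to the right, and cell cycle lists lie close to 0.

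Of 15 melanocyte identity genes tested 7 rose and 1 fell, with a median of 0.20. LEF1, a transcription factor of Wnt signalling in the lineage, rose from 92.5 and 85.5 CPM to 151 and 146 CPM (log2 0.74 ± 0.07, adjusted p = 1.21e-08). ERBB3, a neuregulin receptor, rose from 60.8 and 61.3 CPM to 98.2 and 90.9 CPM (log2 0.63 ± 0.07, adjusted p = 1.99e-07), and SOX5, a partner of SOX10, rose by 0.64 ± 0.06 (adjusted p = 9.9e-08). SOX10 had a log2 fold change of 0.14 ± 0.07 (adjusted p = 0.173) and MITF one of -0.15 ± 0.07 (adjusted p = 0.178), against 0.14 (adjusted p = 0.0409) and -0.15 (adjusted p = 0.0306) in the fit of the 4 libraries.

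The 20 melanin and melanosome genes split, with 5 up, 8 down and a median of -0.08. DCT, an enzyme of eumelanin synthesis, fell from 390 and 396 CPM to 259 and 273 CPM (log2 -0.56 ± 0.07, adjusted p = 2.1e-06). MLANA, a melanosome protein, fell from 1131 and 1216 CPM to 820 and 916 CPM (log2 -0.44 ± 0.08, adjusted p = 0.000271). TYR, the rate-limiting enzyme of melanin synthesis, rose instead, from 56.4 and 58.9 CPM to 77.1 and 72.1 CPM (log2 0.37 ± 0.07, adjusted p = 0.000358). APOD, an apolipoprotein, rose from 12.1 and 9.48 CPM to 22.8 and 19.6 CPM (log2 0.98 ± 0.09, adjusted p = 1.94e-08). Without cluster 3 MLANA stood at log2 -0.23 and did not pass the test (adjusted p = 0.0613).

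The study names 18 genes for the primed state, only part of them as markers. Others it gives as upregulated there or as differing between TGFB1-induced and untreated primed cells. All 18 were chosen on these cells and others of the line, so that their direction is not independent evidence. Of these 11 rose in drug-susceptible cells, 1 fell and 6 did not pass the test, with a median of 0.78. AXL, a receptor tyrosine kinase tied to drug resistance, rose from 0.208 and 0.586 CPM to 3.42 and 3.09 CPM (log2 3.03 ± 0.23, adjusted p = 7.32e-10), and its log2 fold change was 2.48 without Control r1 and 3.94 without Control r2. JUN, an AP-1 factor, rose from 2.09 and 3.49 CPM to 12 and 10.1 CPM (log2 1.99 ± 0.16, adjusted p = 1.81e-09). FGF1, an acidic fibroblast growth factor, rose from 2.75 and 2.69 CPM to 10.8 and 10.1 CPM (log2 1.94 ± 0.10, adjusted p = 2.68e-12). The other rises included FN1, SERPINE2, COL1A1, FOSL1, VEGFC, PDGFA and TGFB1. The call of FOSL1 was lost without Control r2 (adjusted p = 0.16) or TGFB1 r1 (0.546), and VEGFC stood at log2 0.32 without cluster 3 (adjusted p = 0.459).

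NT5E, EGFR, NGFR, FGFR1, VEGFA and BDNF were the 6 of these genes that did not pass the test. NT5E stood at 15.0 and 27.4 CPM in Control and 14.2 and 23 CPM with TGFB1 (log2 -0.17 ± 0.07, adjusted p = 0.133), and at log2 -0.18 (adjusted p = 0.0353) in the fit of the 4 libraries. EGFR stood at 1.23 and 1.45 CPM against 1.67 and 1.81 CPM (log2 0.38 ± 0.15, adjusted p = 0.109), but passed in G1 cells (log2 1.17, adjusted p = 0.00495). NGFR, the nerve growth factor receptor, differed more between the replicates than between the arms, with 0.403 and 2.68 CPM in Control and 0.751 and 2.05 CPM with TGFB1 (log2 -0.07 ± 0.22, adjusted p = 0.877). FGFR1, VEGFA and BDNF had log2 fold changes of -0.09, -0.06 and 0.71 (adjusted p = 0.485, 0.706 and 0.438). VGF, a neuropeptide precursor, fell from 781 and 1301 CPM to 387 and 940 CPM (log2 -0.72 ± 0.12, adjusted p = 0.000183), and its arms overlapped, with r2 above r1 in both. That call was lost without TGFB1 r1 (log2 -0.40), without the replicate term (adjusted p = 0.33) and without cluster 3 (log2 -0.13, adjusted p = 0.496). Inside clusters both TGFB1 libraries lay below both Control libraries in 0 of 8 for VGF, a count that does not pair the replicates. Paired by replicate, VGF was lower with TGFB1 in both replicates in clusters 1, 5 and 7. It was higher in both in cluster 0 and mixed in clusters 2, 3, 8 and 9. In each replicate the VGF-rich clusters 2 and 8 held smaller shares of drug-susceptible cells with TGFB1. For cluster 2 these were 6.83% and 13.7% in Control and 2.60% and 8.29% with TGFB1. There VGF stood at 4311 and 4456 CPM in Control and 3656 and 4646 CPM with TGFB1. The part of cluster shares in the fall of VGF was not tested. Of the 4 genes the study names for its intermediate state, FN1, SERPINE2 and MGP rose and NFATC2, a calcium-responsive transcription factor, did not pass the test (log2 -0.07 ± 0.07, adjusted p = 0.591). NFATC2 passed in opposite directions in G1 cells (log2 0.37, adjusted p = 0.00963) and in S cells (log2 -0.38, adjusted p = 0.00476), and was lower without cluster 3 (log2 -0.29, adjusted p = 0.0167).

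The size of these rises was set against the level in primed cells of the same library, since primed cells were far more frequent with TGFB1 and droplets can hold free RNA of other cells. The rise of unscaled CPM in drug-susceptible cells was taken as a percent of the CPM in primed TGFB1 cells. For COL18A1 it was 48.6% and 36.3%, for SKIL 25.6% and 22.9%, for PMEPA1 12.1% and 9.08%, for AXL 8.79% and 5.64%, and for FN1 7.92% and 6.53%. For COL1A1 it was 1.64% and 1.16%, for MMP1 1.34% and 1.16%, for BGN 2.29% and 1.61%, and for VEGFC 1.52% and 1.6%. In 48 genes whose primed level was at least 20 CPM and at least 20 times that of drug-susceptible Control cells, a group defined after the values were seen, the lower quartile was 1.63% and 1.24% and the median 3.44% and 2.36%. A low Control level was part of how these genes were picked, so that no count of rises is read from them. SCG5 and ITGA11, which did not pass the test, stood at -0.02% and 0.54% and at 0.49% and -0.21%. The part of free RNA, or of cells close to the primed clusters, in these rises was not tested.

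**Figure D4:**
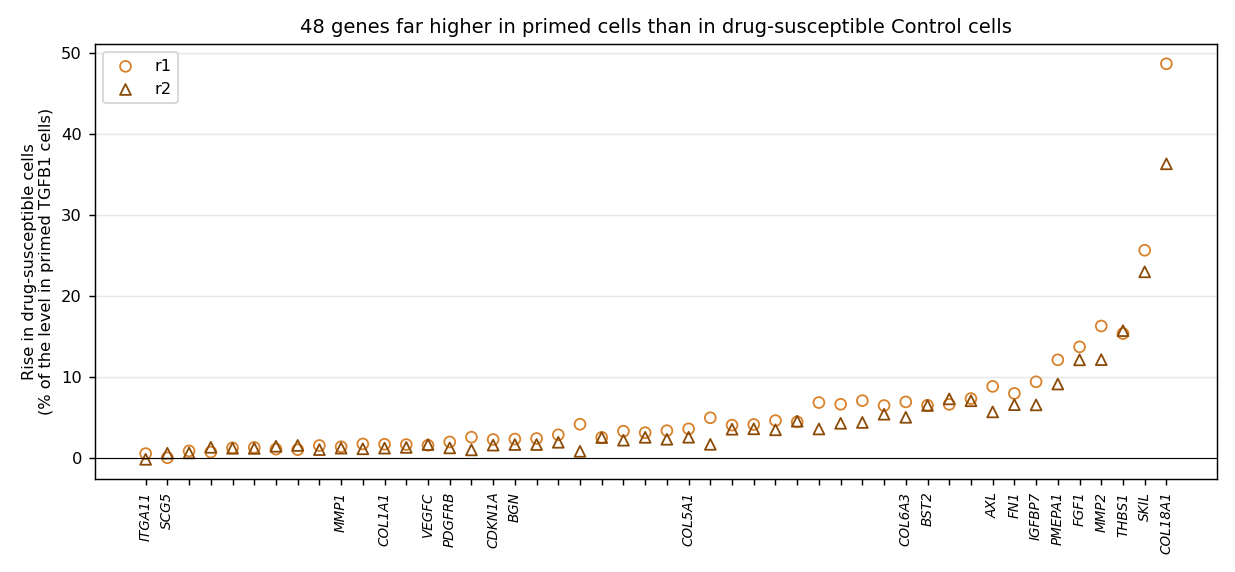
Rise of each of 48 genes in drug-susceptible cells with TGFB1, as a percent of the level in primed TGFB1 cells of the same library (y axis), for r1 (circles) and r2 (triangles), with genes ordered by their mean and only genes discussed in the text labelled. Most genes lie under 5%, SKIL lies at 25.6% and 22.9%, and COL18A1 lies highest at 48.6% and 36.3%.

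The same comparison over all cells, primed cells included, called 5324 genes, against 2665. NT5E was then higher with TGFB1 (log2 0.89, adjusted p = 1.41e-08) and MITF lower (log2 -0.46, adjusted p = 2.18e-05). In drug-susceptible cells they stood at -0.17 and -0.15 and did not pass the test in the fit of all 8 libraries. The primed clusters were chosen by the study for expressing primed markers. They held 29.1% and 31.3% of TGFB1 cells and 2.26% and 4.47% of Control cells, so that this contrast follows in part from how state was defined. PMEPA1 and FN1 reached 6.08 and 4.42 over all cells against 4.93 and 3.81 in drug-susceptible cells.

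Of 20 growth factor genes tested 6 rose and 2 fell, with a median of 0.03. TGFA, a ligand of EGFR, was rare and rose from 0.0909 and 0.112 CPM to 1.25 and 1.05 CPM (log2 3.47 ± 0.30, adjusted p = 9.04e-09). PDGFA, a platelet-derived growth factor, rose from 10.0 and 9.94 CPM to 19.4 and 16.8 CPM (log2 0.86 ± 0.09, adjusted p = 7.95e-08). The chemokine CXCL8 fell, with 6 and 25 UMIs in Control against 0 and 3 with TGFB1, a ratio of Control over TGFB1 of 8.18 per UMI (95% interval 2.55 to 41.8, counting error only). Its call was lost without Control r2 (log2 -3.04) and without TGFB1 r2 (log2 -5.72). It was also lost without the replicate term (log2 -2.96, adjusted p = 0.143) and without cluster 3 (log2 -2.34, adjusted p = 0.0705). DESeq2 gave CXCL8 no adjusted p. Of 12 AP-1 genes 5 rose and 1 fell, and FOS rose from 33.2 and 34.1 CPM to 50.3 and 51.1 CPM (log2 0.59 ± 0.07, adjusted p = 6.71e-07). ATF3, a stress-induced factor of that family, fell by 0.71 on the log2 scale (SE 0.16, adjusted p = 0.00265). Its call was lost without TGFB1 r1, at log2 -0.66. It passed in S cells (log2 -0.92, adjusted p = 0.00676) but not in G1 (-0.39, adjusted p = 0.359) or G2M cells (-0.68, adjusted p = 0.186).

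Of 12 YAP and TEAD targets 4 rose and none fell by the edgeR test, the 4 being CCN2, AXL, AMOTL1 and F3, with a median of 0.20 for the list. Of 18 genes that report ERK output 2 rose and 1 fell, with a median of 0.01, a share called near the 14.9% of all genes tested. IER3, an immediate early gene, rose from 242 and 289 CPM to 394 and 427 CPM (log2 0.63 ± 0.08, adjusted p = 1.26e-06), and SPRY2, a feedback inhibitor of receptor signalling, rose by 0.32 ± 0.06 (adjusted p = 0.000912). SPRY2 had an adjusted p of 0.0534 without Control r1, and F3 one of 0.0696 without Control r1 and 0.0908 without TGFB1 r2.

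The falls were smaller than the rises. FRMD4B, a scaffold protein and the most abundant of the 12 largest falls (chr3:69168782-69542583, minus strand), went from 441 and 417 CPM to 182 and 229 CPM (log2 -1.06 ± 0.09, adjusted p = 2.52e-09). ACSS1, a mitochondrial acetyl-CoA synthetase, fell from 21.1 and 19.7 CPM to 8.09 and 9.35 CPM (log2 -1.22 ± 0.08, adjusted p = 1.95e-10). HPGD, which inactivates prostaglandins, fell from 41.0 and 30.8 CPM to 18.1 and 15.1 CPM (log2 -1.11 ± 0.07, adjusted p = 3.97e-11). Both TGFB1 libraries lay below both Control libraries in each of them. FABP7, a fatty acid binding protein of the neural crest lineage, fell from 74.4 and 72.3 CPM to 41.2 and 42 CPM (log2 -0.82 ± 0.08, adjusted p = 5.24e-08). ARRB1, a β-arrestin, fell by 0.93 on the log2 scale (SE 0.08, adjusted p = 8.09e-09), and ISG20, an interferon-induced exonuclease, by 1.21 (SE 0.10, adjusted p = 4.51e-09). The other members of the 12 were C3orf49, C11orf96, INKA1, ZCCHC24, BTN2A2 and CDKN2A, with log2 fold changes between -1.20 and -0.83.

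The largest fall among the listed genes with more than 100 UMIs in every library was that of SLC7A11, the cystine transporter of system xc- (chr4:138164097-138242349, minus strand). It went from 9.40 and 11.9 CPM to 2.30 and 3.03 CPM (log2 -1.99 ± 0.11, adjusted p = 6.18e-12), and 4.76% and 4.65% of cells had a UMI at 5000 UMIs per cell in Control against 1.07% and 1.43% with TGFB1 (unthinned 13.2% and 16.6% against 3.23% and 4.33%). It belongs to the list of ATF4 stress response genes, which also holds ATF4 itself, the transcription factor of the amino acid response. Of 13 genes tested from that list 8 fell and 2 rose, with a median of -0.24. ASNS, asparagine synthetase, fell from 1.77 and 1.71 CPM to 1.15 and 0.989 CPM (log2 -0.70 ± 0.16, adjusted p = 0.00288) but stood at log2 -0.02 in G1 cells (adjusted p = 0.977) and at -1.06 in both S and G2M cells. DDIT4, an inhibitor of mTORC1, fell from 145 and 144 CPM to 103 and 101 CPM (log2 -0.51 ± 0.06, adjusted p = 3.2e-06). SLC7A5, the large neutral amino acid transporter, moved the other way, from 34.1 and 35.6 CPM to 73.5 and 76.2 CPM (log2 1.10 ± 0.07, adjusted p = 3.34e-11). ATF4 itself did not pass the test (log2 -0.17 ± 0.07, adjusted p = 0.0894), but did in the fit of the 4 libraries (adjusted p = 0.00885) and in G1 cells (log2 -0.23, adjusted p = 0.0361).

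Cell cycle lists had medians close to 0. Of 25 G1/S and replication genes 3 rose and 1 fell, a share near that of all genes tested, with a median of -0.05, and of 26 mitotic genes 1 rose and none fell by the edgeR test, with a median of 0.03. RRM2, a subunit of ribonucleotide reductase, had a log2 rise of 0.24 (adjusted p = 0.0112) and AURKA, a mitotic kinase, one of 0.26 (adjusted p = 0.0136). Of 15 CDK inhibitors, D cyclins and MYC genes tested 5 rose and 4 fell. CDKN2A, which encodes p16 and p14ARF (chr9:21967752-21995301, minus strand), fell from 276 and 283 CPM to 166 and 150 CPM (log2 -0.83 ± 0.08, adjusted p = 8.55e-08). MYC fell from 174 and 165 CPM to 104 and 109 CPM (log2 -0.66 ± 0.07, adjusted p = 1.84e-07). The inhibitors CDKN1A and CDKN1C rose at low level, from 1.18 and 1.17 CPM to 2.04 and 1.72 CPM and from 0.870 and 1.06 CPM to 1.80 and 1.57 CPM (adjusted p = 0.0039 and 0.0105). The calls of AURKA and RRM2 were each lost without any 1 of 3 libraries (adjusted p 0.0951 to 0.359 and 0.0642 to 0.26), those of CDKN1A and CDKN1C each without 1 of 2, TGFB1 r1 among them (0.113 and 0.429), the other being Control r1 for CDKN1A (0.0717) and Control r2 for CDKN1C (0.0621). CDKN1C stood at log2 0.07 without cluster 3 (adjusted p = 0.921), at 1.93 in G1 cells (adjusted p = 0.000171), and at 0.27 in S and 0.12 in G2M cells, where it did not pass the test. CDKN1A passed in S cells (log2 0.75, adjusted p = 0.00301) but not in G1 (0.58, adjusted p = 0.335) or G2M cells (0.97, adjusted p = 0.115).

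By the authors' phase calls 33.4% and 31.3% of drug-susceptible cells were in G1 in Control and 40.3% and 39.7% with TGFB1. Without cluster 3 the direction turned, with 33.2% and 30.9% in Control and 13.3% and 24% with TGFB1. That cluster held 2182 and 1619 TGFB1 cells, 60.8% and 61.4% of them in G1, against 56 and 59 Control cells. Leaving it out thus takes G1 cells almost only from the TGFB1 arm, and no conclusion is drawn from the turn. Over all drug-susceptible cells the arms did not overlap in this share, and 2 libraries against 2 cannot give an exact permutation p below 0.333. The test was therefore repeated within each phase, an alternative that for S and G2M was chosen after the data were seen. It called 15.8% of the genes tested in G1, 12.7% in S and 8.84% in G2M. Of the 2511 genes called over all phases and tested in every phase, 835 passed in all 3 with the same sign, and of the 273 with at least a 2-fold change 206 did. FN1 rose by 4.47 ± 0.12, 3.51 ± 0.10 and 3.36 ± 0.11 on the log2 scale in G1, S and G2M, and SLC7A11 had values of -2.35 ± 0.17, -2.05 ± 0.16 and -1.59 ± 0.15. RRM2 had values of -0.10, 0.31 and 0.45, of which that in G1 did not pass the test (adjusted p = 0.669). Phase was called in Seurat from expression in the same cells. Values of cell cycle genes within a phase are therefore not independent of the call. SOX10 (log2 0.21, adjusted p = 0.0451) and EGFR (log2 1.17, adjusted p = 0.00495) passed the test in G1 and in neither other phase. Differences between phases were not tested.

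**Figure D5:**
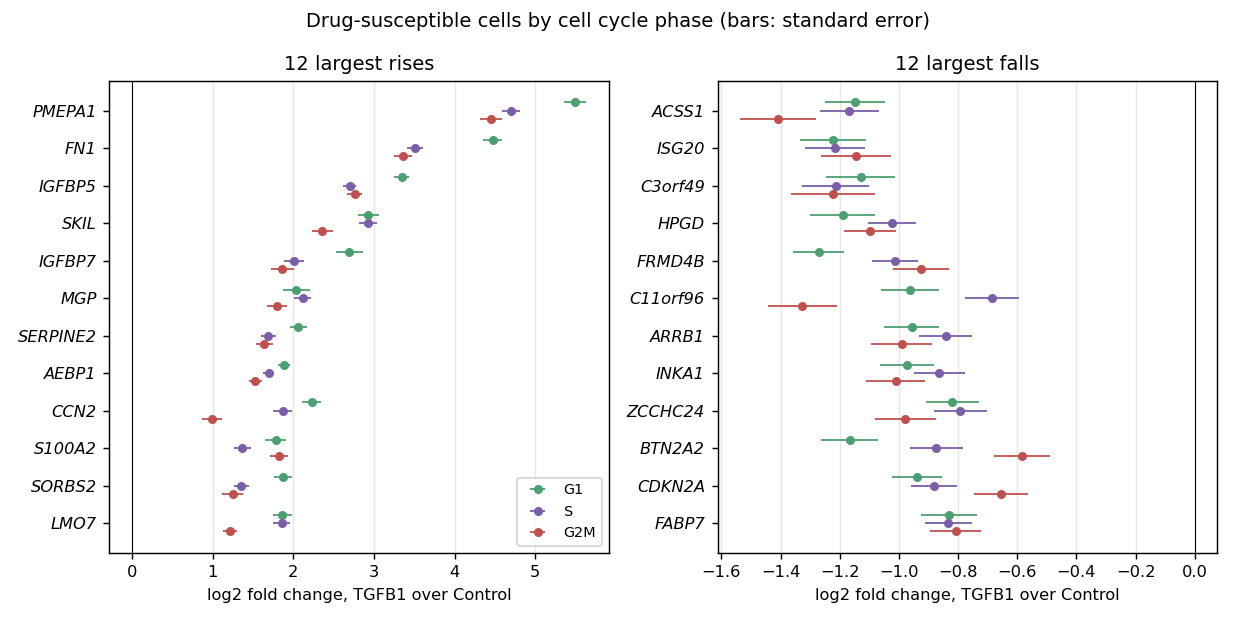
Log2 fold change (TGFB1 over Control, x axis) with its standard error in drug-susceptible cells of G1 (green), S (purple) and G2M (red), for the 12 largest rises and the 12 largest falls. All 24 genes keep their direction in the 3 phases, and FN1 ranges from 4.47 in G1 to 3.36 in G2M. The genes were picked from the same cells over all phases, so that a kept direction is no separate test.

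The main rises were also present inside clusters. In 8 drug-susceptible clusters that held at least 50 cells in each of the 4 libraries, PMEPA1, FN1, SKIL and AEBP1 were higher in both TGFB1 libraries than in both Control libraries in 8 of 8, and SLC7A11 was lower in 8 of 8. SERPINE2, IGFBP5 and MGP were higher in 7 of 8, AXL in 4 of 8 and NT5E in 0 of 8. VGF was lower in 0 of 8 by this count, which does not pair the replicates. In cluster 0, which held the largest share of Control cells, PMEPA1 stood at 3.01 and 4.01 CPM in Control and 33.0 and 26.1 CPM with TGFB1, from 119 and 115 TGFB1 cells. In cluster 3, which held the largest share of TGFB1 cells, it stood at 23.2 and 32.5 CPM in 56 and 59 Control cells and 205 and 208 CPM with TGFB1. Over all drug-susceptible cells outside cluster 3 many rises were smaller by more than 1.5-fold but still passed the test. This held for PMEPA1 (log2 4.05), FN1 (2.74), IGFBP5 (1.95), IGFBP7 (1.44), SERPINE2 (0.95), CCN2 (0.70) and SORBS2 (0.61) among the 12 largest rises. It also held for COL18A1 (2.58), COL1A1 (2.59), COL5A1 (4.36), THBS1 (2.06), BGN (1.26), MMP2 (1.80) and LOXL2 (0.36, adjusted p = 0.0492). LTBP2 (1.38), TGFBI (4.99), AXL (2.17), JUN (1.16) and BST2 (1.49) were smaller in the same way. AURKA stood higher (0.85), but the share of G2M cells was then 50.2% and 43.1% with TGFB1 and 29.7% and 30.5% in Control. Within G2M cells AURKA stood at log2 0.29, with the limit given above for cell cycle genes within a phase. The clusters were built from the same counts, so that these levels are a description. FN1 in cluster 0 stood at 25.7 and 35.3 CPM in Control and 90.6 and 122 CPM with TGFB1. In primed TGFB1 cells FN1 stood at 8474 and 8855 CPM. The part of free RNA of primed cells in the rises inside clusters was not tested. The leading genes of cluster 3 include FN1, PMEPA1, THBS1, COL18A1, IGFBP5 and MMP2. Smaller rises of such genes without that cluster are therefore partly built in.

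Markers of other cells and of RNA quality were read in the same way. Of 13 markers of leukocytes, endothelium, keratinocytes and perivascular cells 6 passed the filter on low counts and 3 had no UMI. Their summed level was 35.4 and 39 CPM in Control and 35.1 and 35.2 CPM with TGFB1, of which CD68, a lysosomal protein also found outside macrophages, made up 33.1 and 36.9 CPM and 31.9 and 32.4 CPM. Each other marker tested was at or under 1.79 CPM in these libraries, and PDGFRB was the 1 that rose, from 0.714 and 0.661 CPM to 1.79 and 1.25 CPM. That rise was 1.93% and 1.19% of the level in primed TGFB1 cells, and without cluster 3 PDGFRB stood at log2 0.38 (adjusted p = 0.346). Of 13 mitochondrial transcripts none rose and 3 fell (MT-ND4, MT-ND4L and MT-ND6), with a median of -0.10, and each of the 3 calls was lost without any 1 of 3 or 4 libraries (adjusted p 0.053 to 0.397). Of 19 interferon response genes 3 rose and 1 fell, with a median of -0.11, against 14.9% called over all genes tested. BST2, the antiviral protein tetherin, rose from 1.09 and 1.25 CPM to 7.53 and 4.94 CPM (log2 2.40 ± 0.17, adjusted p = 2.01e-10).

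The TGFBRi arm shares the Control libraries, so its values are given side by side and not as a second test of the same change. Against Control it gave log2 fold changes in drug-susceptible cells of -2.23 for PMEPA1, -1.79 for SKIL and -0.34 for SMAD7, where TGFB1 gave 4.93, 2.79 and 1.22. FN1 had a log2 fold change of -0.32 with TGFBRi (adjusted p = 0.127), against 3.81 with TGFB1. For ID3 and ID1 TGFBRi gave -3.02 and -2.27, where TGFB1 gave 0.48 and 0.01.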

How the data were processed

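UMI counts per gene and cell of 8 droplet libraries were used as the authors deposited them. They had been produced by Cell Ranger against hg38, and the libraries were joined with their depths left as sequenced. The Cell Ranger version and annotation were not given in the sources used here. The authors removed cells by gene number (also against doublets) and by mitochondrial percent; the deposited cells have 2001 to 5999 genes, and no doublet caller was run here. Library, replicate, cluster, state, phase and percent of mitochondrial UMIs were taken from the metadata that the authors deposited, as was their UCell score of primed genes, whose median was 0.378 and 0.380 in drug-susceptible Control cells and 0.385 and 0.384 with TGFB1. Its 90th percentile was 0.392 and 0.395 in the former and 0.414 and 0.412 in the latter. The 10th percentile of primed cells was 0.402 and 0.404 in Control and 0.427 and 0.431 with TGFB1. In drug-susceptible TGFB1 cells the 90th percentile thus lay above the 10th percentile of primed Control cells and below that of primed TGFB1 cells.

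Counts were summed over drug-susceptible cells of each library and fitted with edgeR 4.0.16 in R 4.3.3 (filterByExpr, TMM factors 0.943 to 1.05, treatment and replicate, 3 residual degrees of freedom, two-sided, Benjamini-Hochberg over 17914 genes). The SE is the log2 fold change divided by the square root of F. Replicate was a term because each starting well was split over the 4 plates, and the r2 to r1 difference correlated between every pair of arms (Pearson's r 0.304 to 0.498 across genes). Shares of cells with a UMI used cells thinned to 5000 UMIs, which left out 11 drug-susceptible cells, and carry 95% Clopper-Pearson intervals that cover counting error only. On simulated counts with 192 changed genes among 17459 the fit recovered 164 and made 7 false calls. The genes recovered were 74 set to a 2-fold change and 90 set to a 4-fold change. Recovery of genes that change less than 2-fold was not tested.

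Named genes are those the study names for the primed and intermediate states with SOX10 and MITF, the 12 largest rises and falls (an average of 10 CPM or more in the 8 libraries, called, same direction in both replicates), up to 4 called members per list with one that was not called, and the ligands, receptors, SMAD and ID genes; others were chosen after their values were seen. The members and all 27 lists were chosen with earlier results of these data known. Alternatives were DESeq2 1.42.0, other scaling, no filter, no replicate term, fewer libraries, other cells and equal cell numbers. Gene positions come from GENCODE v44 on hg38, matched by symbol, and start windows from RefSeq (GRCh38.p14). One gene among the listed members is counted in the totals but not reported here.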

Additional observations from a re-analysis of the deposited data

How the results depend on the processing

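The main comparison called 1533 genes higher and 1132 lower, 351 and 66 of them at least 2-fold. The replicate numbers mark wells that were split over the arms, and without the replicate block 775 genes were higher and 414 lower, with 34 at least 2-fold lower, 1189 of the calls being kept with their sign. DESeq2 called 1030 genes higher and 774 lower, with 230 and 33 at least 2-fold, and kept 1774 of the calls. Among named genes it did not call ACTA2, CDH13, CDKN1A, CDKN1C, F3, FOSL1, ID2, LTBP1, SMAD6, TGFB1, TGFBI and TGFBR1 (adjusted p 0.0601 to 0.528). CXCL8 was not called by DESeq2 either, which gave it a log2 fold change of -3.19 and no adjusted p. A fit of the 4 Control and TGFB1 libraries alone called 2154 genes higher and 1815 lower. Over all cells 2990 genes were higher and 2334 lower, with 972 and 137 at least 2-fold. Without cluster 3 220 genes were at least 2-fold higher, the calls of ID2, SMAD6, SMAD9, TGFB1 and TGFBR1 were among those lost (adjusted p 0.0796 to 0.677), and the phase shares with TGFB1 moved to 13.3% and 24% in G1, 36.5% and 32.9% in S and 50.2% and 43.1% in G2M. In G2M cells 782 genes were higher and 524 lower, with 197 and 40 at least 2-fold. Leaving out 1 library gave 648 to 1281 higher, 340 to 817 lower and 30 to 76 at least 2-fold lower, with the fewest calls without TGFB1 r1 in each. The cause of these differences was not tested.

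Some log2 fold changes turned sign. With all cells this held for the called genes ATF3 (0.16), CXCL8 (0.49), ID2 (0.49), SMAD3 (0.025) and TGFBR1 (0.30). It also held for genes that had not passed the test, FGFR1 (0.12), LAMA4 (-0.16), NT5E (0.89), SNAI2 (-0.045), SOX10 (-0.17), TGFB2 (-0.047) and VEGFA (1.06). In G1 cells it held for the called gene RRM2 (-0.10) and for ID1 (-0.16), ID4 (0.41), NFATC2 (0.37), NGFR (0.64), TGFB2 (-0.27) and TGFB3 (-0.48), and in S cells for ID1 (-0.046), SNAI2 (-0.046) and TGFB2 (-0.081). Without cluster 3 it held for COL1A2 (-0.14), ID4 (0.094), ITGA11 (-0.30), MITF (0.084), SCG5 (-0.36), SNAI2 (-0.19), TGFB2 (-0.33), TGFB3 (-0.012) and ZEB2 (-0.22). NGFR stood at 0.11 with DESeq2, ID1 at -0.023 with equal cell numbers and at -0.0038 without the filter on low counts, and SNAI2 at -0.017 without that filter. With 1 library left out, values crossed 0 for FGFR1 (-0.21 to 0.018), ID1 (-0.10 to 0.13), ID4 (-0.12 to 0.013), ITGA11 (-0.36 to 0.66), NFATC2 (-0.17 to 0.025), NGFR (-0.33 to 0.76), SMAD2 (-0.16 to 0.059), SNAI2 (-0.041 to 0.045), TGFB2 (-0.092 to 0.29), TGFB3 (-0.19 to 0.43) and VEGFA (-0.17 to 0.042), none of which had passed the test.

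With 2 libraries a side, depth and replicate number limit small changes of rare genes. State and clusters were assigned from the counts that were then compared, and TGFB1 libraries were shallower per cell than Control libraries. The S and G2M fits were chosen after the data were seen.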

Other observations

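A few genes outside the lists had large differences at low level and were picked after their values were seen. CRYAB, the small heat shock protein αB-crystallin, rose from 0.221 and 0.137 CPM in Control r1 and r2 to 3.65 and 2.57 CPM with TGFB1 (log2 4.11 ± 0.27, edgeR adjusted p = 6.28e-11). GLI2, a transcription factor of Hedgehog signalling, rose from 0.234 and 0.362 CPM to 3.69 and 2.74 CPM (log2 3.41 ± 0.23, adjusted p = 1.73e-10). TRIP6, a LIM domain adaptor protein of focal adhesions, fell from 2.92 and 4.28 CPM to 0.384 and 1.03 CPM (log2 -2.34 ± 0.17, adjusted p = 6.45e-10). In each of these genes both TGFB1 libraries lay on the same side of both Control libraries.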
